A study of Mus musculus with 12 samples.

Results

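The immunoglobulin constant region genes encode the part of the antibody chains that sets the class of the antibody. The set comprised 10 mouse genes chosen by name: the heavy chain genes Ighm, Ighd, Ighg3, Ighg1, Ighg2b, Ighg2c and Igha and the light chain genes Igkc, Iglc1 and Iglc2. Of the 12699 genes in the table, 8 were members of this set, while Ighd and Iglc1 had no entry under their gene identifiers and were not analysed here. RNA was sequenced from hCD2+ B cells of 8 to 12 week old mice, sorted after 48 h of culture, in 12 libraries from pools of 2 to 3 mice each. CTCFfl/fl;AID-CreTG/+ cells, which can lose both copies of the Ctcf gene, were set against CTCFfl/+;AID-CreTG/+ cells, which carry 1 floxed and 1 wild-type copy, so the Cre transgene was shared by all groups. Each genotype had 3 libraries from B cells co-cultured with T cells under anti-CD3 and anti-CD28 (CD3/CD28 cultures) and 3 from B cells stimulated with lipopolysaccharide and interleukin 4 (LPS/IL4 cultures). The AID-Cre transgene also encodes the human CD2 reporter, so that deletion takes place only in B cells that express the transgene, and hCD2 sorting keeps those cells. The question was how loss of CTCF, an architectural DNA-binding protein, affects B cells under either stimulus.

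A mature naive B cell transcribes Ighm and Ighd from the same promoter and places IgM and IgD on its surface. In class switch recombination, DNA breaks arise in switch regions that lie before the constant genes, and the recombined variable exon is joined to a constant gene further downstream, which replaces IgM by IgG, IgE or IgA. Before the switch the target gene is transcribed from its own promoter into a sterile germline transcript, and cytokines choose that target, with interleukin 4 known to favour Ighg1 and Ighe in mouse B cells. The value of a constant gene therefore holds germline transcripts and transcripts of switched cells together, and does not separate the membrane from the secreted form.

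In the GRCm38 genome the heavy chain constant genes lie on the minus strand of chromosome 12, in the order Ighm, Ighd, Ighg3, Ighg1, Ighg2b, Ighg2c, Ighe and Igha away from the variable segments. Ighm lies at chr12:113418558-113422730, Ighg3 at chr12:113356224-113361232 and Ighg1 at chr12:113325240-113330523. Their neighbours further downstream are Ighg2b at chr12:113302965-113307933, Ighg2c at chr12:113285325-113288932 and Igha at chr12:113254830-113260236. Measured from the start of Ighm, the starts of Ighg3, Ighg1, Ighg2b, Ighg2c and Igha follow after 61.5, 92.2, 115, 134 and 162 kb. Igkc, the only kappa constant gene, lies on the plus strand at chr6:70726435-70726966, where the annotated transcript Gm30211 overlaps it, and Iglc2 lies on the minus strand at chr16:19198396-19200351 and overlaps the joining segment Iglj2.

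The IgG genes are close relatives, so the first 61 bases of their CH1 exons, which have the length of a read in this study, are shown to make visible how far a read can tell them apart. Capitals mark bases that differ from Ighg1. The stretches lie at chr12:113330463-113330523 for Ighg1, chr12:113361172-113361232 for Ighg3, chr12:113307873-113307933 for Ighg2b and chr12:113288872-113288932 for Ighg2c, all on the minus strand of GRCm38, and were read from the GENCODE M21 transcripts.
Ighg1: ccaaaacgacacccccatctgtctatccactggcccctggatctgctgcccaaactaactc
Ighg3: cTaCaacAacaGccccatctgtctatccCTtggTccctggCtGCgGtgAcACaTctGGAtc
Ighg2b: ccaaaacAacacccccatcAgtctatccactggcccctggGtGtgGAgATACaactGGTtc
Ighg2c: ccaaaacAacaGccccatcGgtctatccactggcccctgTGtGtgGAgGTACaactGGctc
Ighg3 differed from Ighg1 at 18 of the 61 bases, Ighg2b at 13 and Ighg2c at 14, whereas Ighg2b and Ighg2c differed from each other at 5. Over the whole annotated exons, none of the 2531 windows of 61 bases in Ighg1 occurred in another gene, and the same held for the 1826 windows of Ighm, the 2608 of Igha and the 472 of Igkc. Ighg2b shared 65 of 2617 windows (2.48%) with Ighg2c or Ighg3, Ighg2c shared 37 of 1265 (2.92%) with Ighg2b, and Ighg3 shared 28 of 2452 (1.14%) with Ighg2b. Reads from these windows could be split between paralogs by the quantification. Only identical windows were counted and not those that differ at a few bases, so the values of Ighg2b and Ighg2c are uncertain at least to that extent.

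The hinge exon, which links the antigen-binding arms to the stem of the antibody, is where the IgG subclasses differ most in length, and it is shown for the same 4 genes with in-frame cysteine codons in capitals. The exons lie at chr12:113329844-113329882 for Ighg1, chr12:113360529-113360576 for Ighg3, chr12:113307261-113307326 for Ighg2b and chr12:113288263-113288325 for Ighg2c.
Ighg1: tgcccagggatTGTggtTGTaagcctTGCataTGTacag
Ighg3: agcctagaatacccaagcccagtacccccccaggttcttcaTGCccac
Ighg2b: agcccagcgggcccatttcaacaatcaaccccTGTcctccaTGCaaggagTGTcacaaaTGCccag
Ighg2c: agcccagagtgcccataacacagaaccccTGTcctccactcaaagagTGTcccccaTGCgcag
The exons measure 39 bases in Ighg1, 48 in Ighg3, 66 in Ighg2b and 63 in Ighg2c, and hold 4, 1, 4 and 3 complete in-frame cysteine codons in that order of genes. The lambda gene Iglc2 is close in sequence to Iglc3, which was not analysed here. Aligned stretches of 61 bases near the start of both lambda exons, at chr16:19198792-19198852 and chr16:19065621-19065681 on the minus strand, differ at the 4 bases in capitals.
Iglc2: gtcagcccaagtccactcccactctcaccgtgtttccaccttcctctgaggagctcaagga
Iglc3: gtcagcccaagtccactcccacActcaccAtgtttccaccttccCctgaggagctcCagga
Iglc2 shared 21 of its 551 windows (3.81%) with Iglc3, so its value may hold reads of that gene.

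Values are normalized read counts scaled to library size (CPM), and each was a whole multiple of a step found in its library. These multiples, called recovered reads here, came to 6934344 to 11227004 in the CD3/CD28 libraries and 23469188 to 28130440 in the LPS/IL4 libraries. Whether they equal the reads as counted was not tested, which also limits the edgeR and DESeq2 tests on them. Immunoglobulin genes held between 0.578% and 0.699% of the CPM of a library. The 174 of them with an entry took the largest share in CTCFfl/+ replicate 2 of the CD3/CD28 cultures (0.699%), against 0.592% and 0.578% in replicates 1 and 3 of that group and 0.643% to 0.686% in the 3 CTCFfl/fl libraries. Levels of nearly all genes were alike in both cultures: in the 9905 genes that averaged 5 CPM or more, the difference of the mean log2 levels had a median of -0.01 and an SD of 0.05. Among the members it ran from -0.06 (Iglc2) to 0.19 (Ighg2c) on the log2 scale, so levels were not interpreted between cultures, and only the genotype effects were set against each other. Whether the values had been adjusted for culture before deposit is not given in the sources used here. CPM, shares and levels per kilobase therefore describe the values as deposited. The same limit applies to the fold changes, their p-values and the interactions, which were computed from these values. Ctcf, the targeted gene, was at 75.9, 76.3 and 72.0 CPM in CTCFfl/fl and 138, 127 and 126 CPM in CTCFfl/+ libraries of the CD3/CD28 cultures. Under LPS/IL4 it was at 63.1, 69.4 and 78.3 CPM in CTCFfl/fl and 134, 143 and 146 CPM in CTCFfl/+ libraries. Its log2 fold changes were -0.80 (SE 0.07, adjusted p = 0.00012 with limma) and -1.01 (SE 0.10, adjusted p = 0.000344), in the order CD3/CD28 and LPS/IL4, so the libraries matched their labels.

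In CD3/CD28 cultures, single switched heavy chain genes differed between the genotypes, in different directions. Ighg1 fell to 64.6% of its CTCFfl/+ level, Ighg3 rose to 144% and the low Igha to 184%, while Ighm, Ighg2b, Ighg2c, Igkc and Iglc2 did not pass the test. Thus 3 of the 8 members passed at an adjusted p under 0.05, 2 higher and 1 lower, where 18.6% of all 12070 genes tested were called, 9.88% higher and 8.76% lower. At an unadjusted p under 0.05 there were 4 members and 33.9% of all genes. The median log2 fold change of the 8 members was 0.14, and that of all genes tested 0.005. The same 3 of the 8 members were those whose libraries did not overlap between the genotypes (2 higher and 1 lower). This held for 39.6% of all genes tested, 20% higher and 19.5% lower, so the count was near that share. The plot of CPM in every library shows these values for all members.

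**Figure D1:**
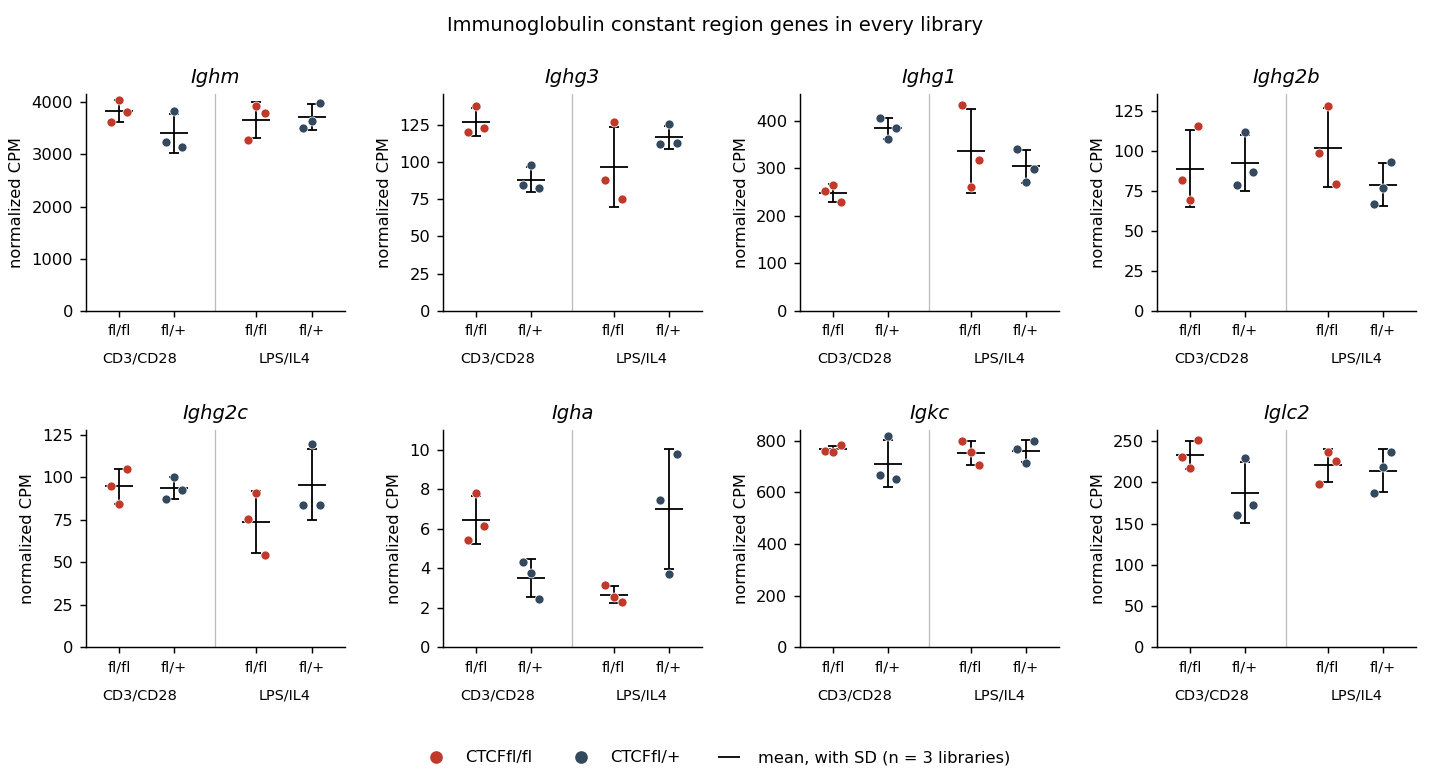
Normalized CPM of the 8 constant region genes in each library, with CTCFfl/fl left of CTCFfl/+ in each culture. Points are libraries, horizontal bars the mean and whiskers the SD (n = 3). In CD3/CD28 cultures the CTCFfl/fl points of Ighg1 (228 to 265 CPM) all lie below those of CTCFfl/+ (362 to 406 CPM), and the points of Ighg3 and Igha lie above.

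Ighg1 encodes the constant region of IgG1, the main IgG class made in response to interleukin 4 in mice. It was at 253, 265 and 228 CPM in CTCFfl/fl and at 406, 362 and 386 CPM in CTCFfl/+ libraries of the CD3/CD28 cultures. The groups did not overlap, with all CTCFfl/fl values on the low side. The means were 249 ± 18.6 CPM in CTCFfl/fl and 385 ± 22.0 CPM in CTCFfl/+ cells (SD, n = 3 each). The log2 fold change was -0.63 (SE 0.07, adjusted p = 0.000612 with limma) on the scale of log2(CPM + 0.5), as for all fold changes here. The call held under every alternative setting and without any single library, with log2 fold changes of -0.68 to -0.57 and adjusted p of at most 0.0204.

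Ighg3 encodes the constant region of IgG3, a class that mouse B cells make in T-independent responses, and is the first IgG gene after Ighm and Ighd. It moved the opposite way. The CTCFfl/fl libraries of the CD3/CD28 cultures held 120.3, 138 and 123 CPM, against 84.4, 97.8 and 82.3 CPM in CTCFfl/+ libraries, so the lowest CTCFfl/fl library was above the highest CTCFfl/+ library. The mean was 127 ± 9.41 CPM in CTCFfl/fl and 88.2 ± 8.39 CPM in CTCFfl/+ cells (SD, n = 3 each). The log2 fold change was 0.53 (SE 0.08, adjusted p = 0.0029 with limma). This call, too, held under every alternative, with log2 fold changes of 0.47 to 0.60 and adjusted p of at most 0.0336.

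Igha, the last constant gene of the locus, encodes the IgA class of mucosal antibodies and is directed by transforming growth factor beta. It was the lowest member, with 52 to 64 recovered reads per CTCFfl/fl library and 26 to 32 per CTCFfl/+ library in CD3/CD28 cultures. The values were 5.42, 7.79 and 6.14 CPM in CTCFfl/fl and 4.31, 3.78 and 2.43 CPM in CTCFfl/+ libraries, which did not overlap. The log2 fold change was 0.81 (SE 0.23, adjusted p = 0.0331 with limma). The call was lost without CTCFfl/fl replicate 2 (log2 fold change 0.68, adjusted p = 0.0958), without CTCFfl/fl replicate 3 (0.84, adjusted p = 0.0568), without CTCFfl/+ replicate 2 (0.87, adjusted p = 0.0627) and without CTCFfl/+ replicate 3 (0.60, adjusted p = 0.117 with limma). DESeq2 on the recovered reads did not call it (adjusted p = 0.0553), and the adjusted p ran from 0.0306 to 0.117 over all alternatives.

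Ighg2b and Ighg2c encode the IgG2 subclasses, which interferon gamma (for Ighg2c) and transforming growth factor beta (for Ighg2b) are known to favour. Ighg2b was at 82.1, 69.0 and 116 CPM in CTCFfl/fl and at 78.4, 112 and 86.7 CPM in CTCFfl/+ libraries of the CD3/CD28 cultures. The groups overlapped, and the log2 fold change of -0.07 (95% confidence interval -0.46 to 0.31) changed sign with the library left out. Ighg2c stood at 94.6, 84.4 and 105 CPM in CTCFfl/fl and 87.4, 100.4 and 92.5 CPM in CTCFfl/+ libraries. Its groups overlapped as well, with a log2 fold change of 0.01 (95% confidence interval -0.18 to 0.21) and an adjusted p of 0.929 with limma. In both genes CTCFfl/fl replicate 2 was the lowest and replicate 3 the highest of its group.

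Ighm, the IgM gene of naive B cells, had the highest CPM of the members in every library. Its values were 3624, 4045 and 3806 CPM in CTCFfl/fl and 3231.5, 3832 and 3146 CPM in CTCFfl/+ libraries of the CD3/CD28 cultures. CTCFfl/+ replicate 2 lay within the range of the CTCFfl/fl libraries, and the other CTCFfl/+ libraries lay below it. The log2 fold change was 0.17 (95% confidence interval -0.01 to 0.36, adjusted p = 0.175 with limma). Without CTCFfl/+ replicate 2, the library with the largest immunoglobulin share, it was 0.26 (adjusted p = 0.0479), and over all alternatives the adjusted p ran from 0.0479 to 0.576.

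The light chains carried the same difference between libraries. Igkc, the kappa constant gene, was at 761, 754 and 781 CPM in CTCFfl/fl and at 665, 816 and 651 CPM in CTCFfl/+ libraries of the CD3/CD28 cultures, so that replicate 2 of CTCFfl/+ was the highest of all 6 and the other CTCFfl/+ libraries the lowest. For Igkc the log2 fold change was 0.11 (95% confidence interval -0.07 to 0.30, adjusted p = 0.366 with limma). Iglc2, a lambda constant gene, was at 230.2, 218 and 251 CPM in CTCFfl/fl and at 160.4, 229 and 173 CPM in CTCFfl/+ libraries. Here, too, CTCFfl/+ replicate 2 lay within the CTCFfl/fl range, above the other 2 CTCFfl/+ libraries. The log2 fold change of 0.33 (SE 0.12, adjusted p = 0.0715 with limma) became 0.48 (adjusted p = 0.00875) without that library, in a range of adjusted p from 0.00875 to 0.24 over all alternatives. DESeq2 on the recovered reads also called Iglc2 (adjusted p = 0.0336).

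Ighe, the IgE gene between Ighg2c and Igha, is no member of the set but lies within the same locus and responds to interleukin 4 as Ighg1 does. It was at 12.4, 6.93 and 13.0 CPM in CTCFfl/fl and at 19.7, 18.7 and 11.2 CPM in CTCFfl/+ libraries of the CD3/CD28 cultures. The groups overlapped through CTCFfl/+ replicate 3, and the log2 fold change of -0.60 (SE 0.25, adjusted p = 0.119 with limma) did not pass the test.

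In LPS/IL4 cultures no member passed the test, where 0.0334% of the 11962 genes tested (4 genes, all lower) were called with limma. At an unadjusted p under 0.05 there were 3 members, Igha and Ighg2c with lower and Ighg2b with higher values in CTCFfl/fl cells, where 6.65% of all genes passed that limit. The edgeR quasi-likelihood test on the recovered reads called no member and DESeq2 called 1, Igha. Groups were apart in 1 of the 8 members, Igha, which was lower, and in 11% of all genes tested, 5.62% higher and 5.42% lower. The median log2 fold change of the 8 members was -0.02, and that of all genes tested -0.001.

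Igha had the largest difference among the members in LPS/IL4 cultures, in the direction opposite to that in CD3/CD28 cultures. It was at 3.14, 2.54 and 2.32 CPM in CTCFfl/fl libraries, with 63 to 74 recovered reads each, and at 7.47, 3.73 and 9.78 CPM in CTCFfl/+ libraries, with 104 to 252 reads each. The CTCFfl/fl libraries were all below the CTCFfl/+ libraries, which spread widely among themselves. This gave a log2 fold change of -1.16 (SE 0.29), with an unadjusted p of 0.00106 and an adjusted p of 0.287 with limma. DESeq2 gave an adjusted p of 0.0117, and over all alternatives it ran from 0.0117 to 0.813.

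Ighg1 was at 433, 261 and 317 CPM in CTCFfl/fl and at 340.5, 272 and 299 CPM in CTCFfl/+ libraries of the LPS/IL4 cultures. CTCFfl/fl replicate 1 was the highest and replicate 2 the lowest of all 6 libraries, and the log2 fold change was 0.12 (95% confidence interval -0.18 to 0.43, adjusted p = 0.945 with limma). Without CTCFfl/fl replicate 1 it was -0.07. Ighg3 was at 88.0, 127 and 75.0 CPM in CTCFfl/fl and at 112, 125 and 113 CPM in CTCFfl/+ libraries. Its CTCFfl/fl libraries enclosed those of CTCFfl/+, and the log2 fold change of -0.30 (95% confidence interval -0.61 to 0.00, adjusted p = 0.749 with limma) did not pass the test. Replicate 2 held the lowest Ighg1 and the highest Ighg3 value of the 3 CTCFfl/fl libraries.

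The IgG2 genes went in different directions in LPS/IL4 cultures without passing the test. Ighg2b was at 98.5, 128 and 79.6 CPM in CTCFfl/fl and at 66.7, 76.7 and 93.2 CPM in CTCFfl/+ libraries (log2 fold change 0.36, SE 0.15, unadjusted p = 0.032 and adjusted p = 0.686 with limma). Ighg2c was at 75.7, 90.9 and 54.2 CPM in CTCFfl/fl and at 83.4, 119.7 and 83.7 CPM in CTCFfl/+ libraries (log2 fold change -0.39, SE 0.17, unadjusted p = 0.0346 and adjusted p = 0.699 with limma). In both genes the groups overlapped. Replicate 2 was the highest CTCFfl/fl library in both, and replicate 3 the lowest.

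For Ighm and the light chains, small differences were estimated in LPS/IL4 cultures. Ighm was at 3277, 3936 and 3789.9 CPM in CTCFfl/fl and at 3510.2, 3642 and 3996 CPM in CTCFfl/+ libraries, with a log2 fold change of -0.02 (95% confidence interval -0.27 to 0.23). Igkc was at 797, 756 and 705 CPM in CTCFfl/fl and at 769, 712 and 797 CPM in CTCFfl/+ libraries, with a log2 fold change of -0.01 (95% confidence interval -0.21 to 0.18). Iglc2 was at 198, 237 and 226 CPM in CTCFfl/fl and at 187, 219 and 237 CPM in CTCFfl/+ libraries, with a log2 fold change of 0.04 (95% confidence interval -0.17 to 0.26). In all 3 genes the groups overlapped along most of their range. Ighe was at 24.8, 9.86 and 18.4 CPM in CTCFfl/fl and at 18.8, 12.8 and 9.63 CPM in CTCFfl/+ libraries (log2 fold change 0.31, adjusted p = 0.925 with limma), again with overlapping groups.

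The difference of the genotype effects, CD3/CD28 minus LPS/IL4, was tested as an interaction in 1 fit of all 12 libraries, in which the cultures were also separate batches. It passed the test for 3 of the 8 members, Igha, Ighg3 and Ighg1, 2 higher and 1 lower, where 7.57% of 11847 genes were called, 3.88% higher and 3.69% lower (23.1% had an unadjusted p under 0.05, as did the same 3 members). For Ighg1 the effect in CD3/CD28 cultures was lower by 0.75 on the log2 scale (interaction -0.75, SE 0.20, adjusted p = 0.0317 with limma), and for Ighg3 it was higher (0.83, SE 0.20, adjusted p = 0.0231). For Igha, with an effect of 0.81 under CD3/CD28 and of -1.16 under LPS/IL4, it was 1.97 (SE 0.40, adjusted p = 0.0126). The remaining interactions were 0.19 for Ighm, 0.13 for Igkc, 0.28 for Iglc2, -0.43 for Ighg2b and 0.40 for Ighg2c, none of which passed (lowest adjusted p = 0.332 with limma).

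The interactions of Ighg1 and Ighg3 depended on single libraries, whereas that of Igha was called without any 1 of the 12. Without CD3/CD28 CTCFfl/+ replicate 1, without CD3/CD28 CTCFfl/+ replicate 3 or without LPS/IL4 CTCFfl/+ replicate 2, only 1 member was called, Igha, with both Ighg1 (adjusted p of 0.0743, 0.0707 and 0.0677 in that order of libraries, with limma) and Ighg3 (0.0576, 0.0634 and 0.0503) above the threshold. Ighg1 was also lost without LPS/IL4 CTCFfl/+ replicate 3 (adjusted p = 0.0585 with limma) and without replicate 3 of CTCFfl/fl in either culture (0.057 in LPS/IL4 and 0.0568 in CD3/CD28), and Ighg3 without CD3/CD28 CTCFfl/fl replicate 2 (0.0563). Over all alternatives the adjusted p ran from 0.00158 to 0.0901 for Ighg1, from 0.000812 to 0.0719 for Ighg3 and from 0.000103 to 0.0389 for Igha. The signs of these 3 interactions were the same throughout. The plot of the genotype effects shows the members with their confidence intervals.

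**Figure D2:**
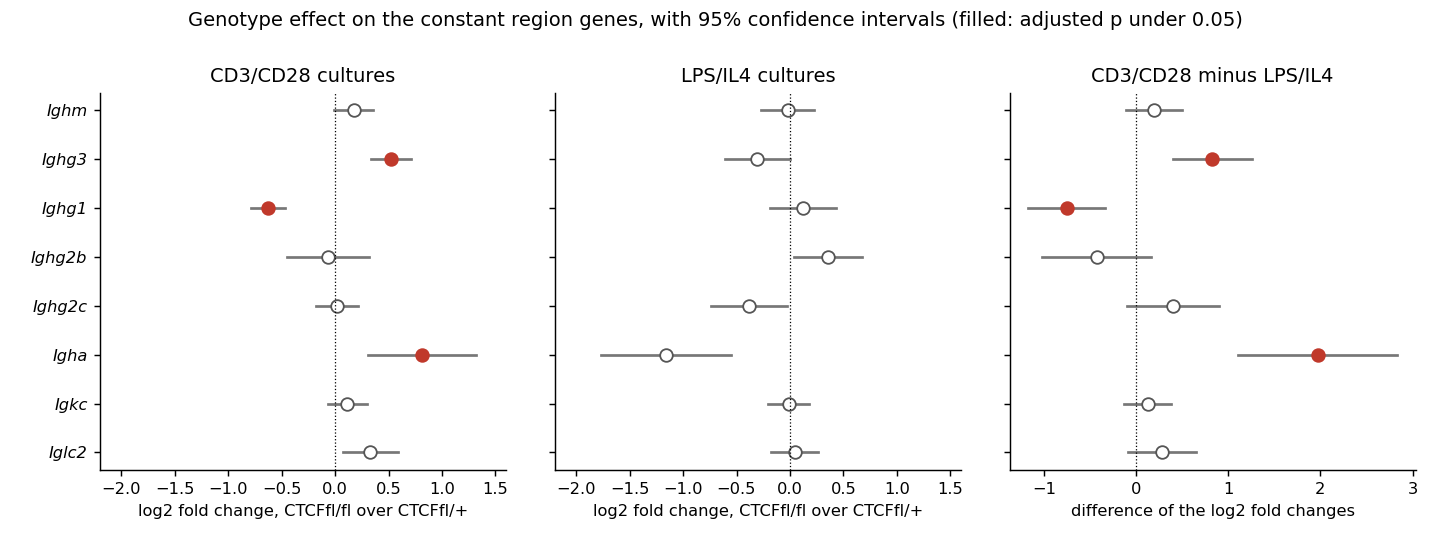
Log2 fold change of each constant region gene, CTCFfl/fl over CTCFfl/+, in CD3/CD28 cultures (left) and LPS/IL4 cultures (middle), and the difference of both (right). Circles are estimates and lines 95% confidence intervals. Filled circles have an adjusted p under 0.05, which holds for Ighg3, Ighg1 and Igha in the left and right panels and for no gene in the middle panel.

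The ratio of a switched gene to Ighm within a library does not depend on the total of that library. Since levels in the table were alike in both cultures, such ratios describe genotype differences within a culture and not the isotype make-up of the cells, and in RNA of a whole population a smaller number of switched cells and less transcript per cell cannot be told apart. In CD3/CD28 cultures Ighg1 came to 6.98%, 6.54% and 5.996% of the CPM of Ighm in CTCFfl/fl libraries and to 12.6%, 9.45% and 12.3% in CTCFfl/+ libraries. The groups were apart, with the CTCFfl/+ replicate 2 closest to the CTCFfl/fl libraries. Ighg3 came to 3.32%, 3.40% and 3.23% of Ighm in CTCFfl/fl libraries and to 2.61%, 2.55% and 2.62% in CTCFfl/+ libraries. Both groups were tight and did not overlap.

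The ratio of the neighbouring genes Ighg3 and Ighg1 combines their ratios to Ighm, which moved in opposite directions. Its log2 difference was therefore larger than either by construction and is no further observation. Ighg3 stood at 47.6%, 52.0% and 53.8% of the CPM of Ighg1 in CTCFfl/fl libraries of the CD3/CD28 cultures, against 20.8%, 27.0% and 21.3% in CTCFfl/+ libraries. On the log2 scale the mean difference was 1.16, and it stayed between 1.09 and 1.28 with any 1 library left out. Igha came to 0.1497%, 0.192% and 0.161% of Ighm in CTCFfl/fl libraries and to 0.133%, 0.0986% and 0.0773% in CTCFfl/+ libraries. All IgG, IgA and IgE genes together came to 15.7%, 14.1% and 15.5% of Ighm in CTCFfl/fl and to 21.1%, 18.1% and 21.0% in CTCFfl/+ libraries. The sum was thus lower in every CTCFfl/fl library, and Ighg1 was the gene of the sum with the largest share of CPM.

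The same ratios overlapped in LPS/IL4 cultures, except for Igha. Ighg1 came to 13.2%, 6.62% and 8.37% of Ighm in CTCFfl/fl and to 9.70%, 7.48% and 7.49% in CTCFfl/+ libraries. Ighg3 came to 2.68%, 3.21% and 1.98% of Ighm in CTCFfl/fl and to 3.18%, 3.44% and 2.82% in CTCFfl/+ libraries. For both ratios the CTCFfl/fl libraries had the wider spread and enclosed or overlapped the CTCFfl/+ libraries. Igha came to 0.0958%, 0.0645% and 0.0612% of Ighm in CTCFfl/fl and to 0.213%, 0.102% and 0.245% in CTCFfl/+ libraries, which were apart.

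The light chain ratio differed by less. Iglc2 came to 30.2%, 28.9% and 32.1% of the CPM of Igkc in CTCFfl/fl libraries of the CD3/CD28 cultures and to 24.1%, 28.0% and 26.6% in CTCFfl/+ libraries. The groups were apart by a narrow margin, between CTCFfl/fl replicate 2 and CTCFfl/+ replicate 2. The ratio under LPS/IL4 was 24.9%, 31.3% and 32.0% in CTCFfl/fl and 24.3%, 30.7% and 29.7% in CTCFfl/+ libraries, with the groups overlapping. Ighm stood at 476%, 536% and 487% of Igkc in CTCFfl/fl and at 486%, 469% and 483% in CTCFfl/+ libraries of the CD3/CD28 cultures, which overlapped. As combinations of members chosen here, the ratios were given no test.

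**Figure D3:**
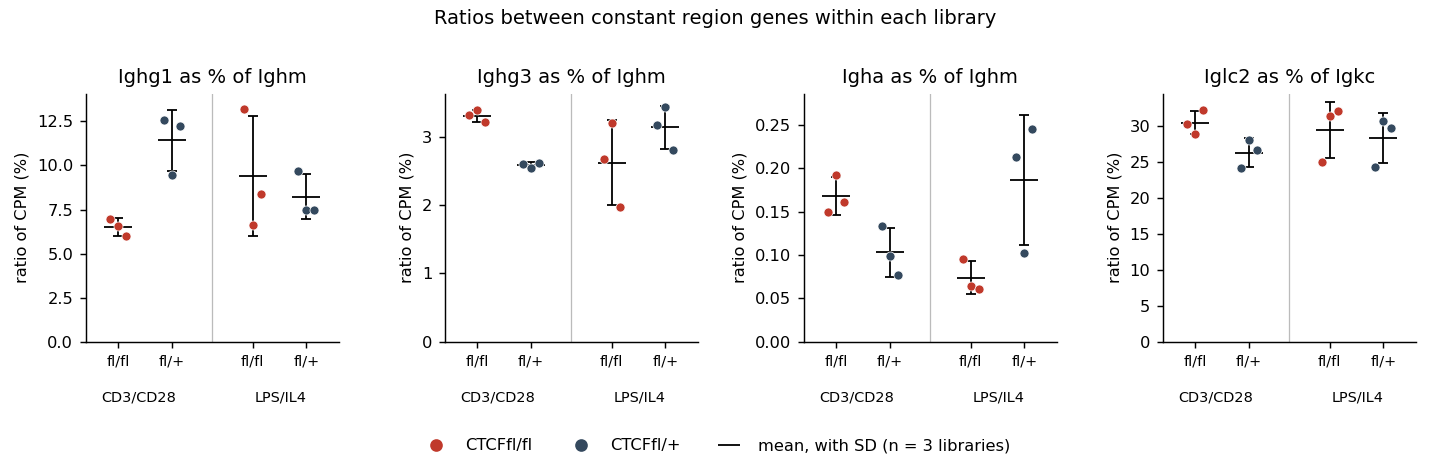
Ratio of the CPM of Ighg1, Ighg3 and Igha to Ighm and of Iglc2 to Igkc within each library, in percent, with CTCFfl/fl left of CTCFfl/+ in both cultures. Points are libraries, bars means and whiskers the SD (n = 3). In CD3/CD28 cultures the Ighg1 ratio is 6.51% on average in CTCFfl/fl and 11.4% in CTCFfl/+ libraries, while the Ighg3 ratio is 3.32% in CTCFfl/fl and 2.59% in CTCFfl/+ libraries.

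Shares were taken of the summed heavy chain CPM (Ighm, the 4 IgG genes, Ighe and Igha). Ighm made up 86.9% ± 0.654 in CTCFfl/fl and 83.3% ± 1.172 in CTCFfl/+ libraries of the CD3/CD28 cultures (SD, n = 3 each), without overlap. Shares of the same total depend on each other, so the higher Ighm share is no observation apart from the lower Ighg1 share given next. The CPM of Ighm itself overlapped and was not called, as given above. Ighg1 made up 5.65% ± 0.428 in CTCFfl/fl and 9.51% ± 1.31 in CTCFfl/+ libraries, and Ighg3 made up 2.88% ± 0.0955 in CTCFfl/fl and 2.16% ± 0.0019 in CTCFfl/+ libraries, again without overlap. Under LPS/IL4, Ighm made up 85.2% ± 2.92 in CTCFfl/fl and 85.7% ± 0.994 in CTCFfl/+ libraries. There Ighg1 made up 7.95% ± 2.61 in CTCFfl/fl and 7.04% ± 1.03 in CTCFfl/+ libraries, and Ighg3 2.24% ± 0.525 in CTCFfl/fl and 2.70% ± 0.251 in CTCFfl/+ libraries. Under LPS/IL4 the shares of all 3 genes overlapped between the genotypes.

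Levels of different genes can be compared only per length. Per kilobase of annotated exon, the order in CTCFfl/fl cells of the CD3/CD28 cultures was Ighm (2028 ± 112 CPM per kilobase), Igkc (1439 ± 26.2), Iglc2 (381 ± 27.4), Ighg1 (95.9 ± 7.18), Ighg2c (71.3 ± 7.63), Ighg3 (50.5 ± 3.75), Ighg2b (33.2 ± 8.98) and Igha (2.42 ± 0.454; SD, n = 3), and no neighbours in this order overlapped. The order was the same in CTCFfl/+ cells of these cultures, but there Ighg3 (35.1 ± 3.34 CPM per kilobase) and Ighg2b (34.5 ± 6.50) overlapped. Since mean levels were alike in both cultures, the order in LPS/IL4 cultures is no second observation. In their CTCFfl/fl cells Ighg2c overlapped Ighg3 and Ighg3 overlapped Ighg2b. Light chain levels per kilobase are sensitive to how much of the untranslated ends the gene model includes, since Igkc has 532 and Iglc2 612 exon bases against 1886 for Ighm.

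Variable region genes, the other segment of the same transcripts, were examined as a list of 165 with an entry, of which 157 were tested in CD3/CD28 cultures. There 2 passed the test, both higher in CTCFfl/fl cells, and none was lower, where 9.88% of all genes tested were called higher and 8.76% lower. The median log2 fold change of the list was 0.17. Ighv1-9 was at 9.25, 12.7 and 10.6 CPM in CTCFfl/fl and at 7.75, 6.73 and 5.42 CPM in CTCFfl/+ libraries (log2 fold change 0.67, SE 0.17, adjusted p = 0.0234 with limma), and Ighv1-78 was at 4.001, 3.89 and 4.25 CPM in CTCFfl/fl and at 2.44, 2.48 and 2.06 CPM in CTCFfl/+ libraries (0.69, SE 0.20, adjusted p = 0.0397). Both had groups that did not overlap, and both calls depended on single libraries and on the setting. On the recovered reads Ighv1-78 was not called by the edgeR quasi-likelihood test (adjusted p = 0.0513) or by DESeq2 (0.162). It was also lost in limma with the replicate block (adjusted p = 0.0782) or quantile normalization (0.0775), and Ighv1-9 without the intensity trend (0.0537). Ighv1-9 was lost without CTCFfl/fl replicate 2 (adjusted p = 0.0683 with limma), CTCFfl/+ replicate 2 (0.0585) or CTCFfl/+ replicate 3 (0.0928), and Ighv1-78 was lost without any 1 of the 6 libraries (adjusted p of 0.0664 to 0.132). By family, the median was 0.20 for 78 Ighv genes, 0.14 for 76 Igkv genes and 0.10 for 3 Iglv genes, beside 0.14 for the 8 constant genes. Summed over all 165 genes, variable regions held 1238, 1327 and 1342 CPM in CTCFfl/fl and 1152, 1337 and 1084 CPM in CTCFfl/+ libraries. CTCFfl/+ replicate 2 was again high in its group, so these sums overlapped. Under LPS/IL4 none of 152 variable genes was called with limma (2 at an unadjusted p under 0.05, against 6.65% of all genes), and the median was -0.03.

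**Figure D4:**
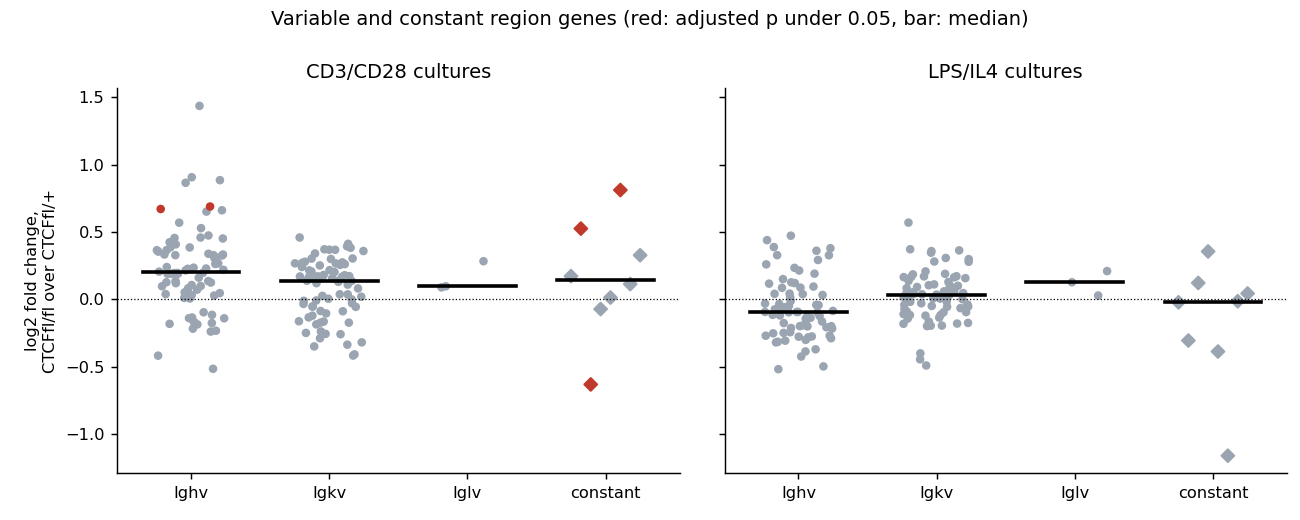
Log2 fold change, CTCFfl/fl over CTCFfl/+, of each tested heavy (Ighv), kappa (Igkv) and lambda (Iglv) variable gene and of the 8 constant genes, in CD3/CD28 (left) and LPS/IL4 cultures (right). Points are genes, bars medians, and red points have an adjusted p under 0.05. In CD3/CD28 cultures the medians are 0.20, 0.14, 0.10 and 0.14, and Ighg1 (-0.63) lies below all variable genes.

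Genes related to antibodies and their receptors were followed as lists. Among 6 partners of the membrane antibody that were tested, 3 rose in CTCFfl/fl cells of the CD3/CD28 cultures and none fell: Cd79a (961 ± 26.2 in CTCFfl/fl and 756 ± 76.1 CPM in CTCFfl/+ cells) and Cd79b, the signalling chains of the B cell receptor, and Erp44, which retains unassembled IgM in the secretory pathway. Their log2 fold changes were 0.35, 0.24 and 0.22 (adjusted p of 0.00967, 0.0342 and 0.0269 with limma), in the order Cd79a, Cd79b and Erp44. Cd79a was lost without CTCFfl/+ replicate 3 (adjusted p = 0.0536), Cd79b without CTCFfl/fl replicate 2 (0.0759), CTCFfl/+ replicate 1 (0.0999) or CTCFfl/+ replicate 3 (0.158), and Erp44 without any library but CTCFfl/fl replicate 2 (0.0509 to 0.121 with limma). Of 19 genes of antibody secretion, 2 rose, Prdm1 (log2 fold change 1.27, adjusted p = 0.00554), which encodes Blimp-1, and the plasma cell antigen gene Sdc1 (0.81, adjusted p = 0.00273). A further 2 fell, the chaperone genes Hsp90b1 (-0.26, adjusted p = 0.0269) and Hspa5 (-0.24, adjusted p = 0.049 with limma), which fold proteins in the endoplasmic reticulum. Hsp90b1 was lost without CTCFfl/fl replicate 2 (adjusted p = 0.0649), CTCFfl/+ replicate 1 (0.118) or CTCFfl/+ replicate 2 (0.0766), and Hspa5 without any library but CTCFfl/fl replicate 3 (0.0752 to 0.134 with limma). With 18.6% of all genes called, the 4 calls among the 19 secretion genes were near that share. At an unadjusted p under 0.05 with limma there were 12 of the 19, against 33.9% of all genes. Libraries did not overlap between the genotypes in 2 secretion genes that were higher and 8 that were lower in CTCFfl/fl cells. Over all genes tested, 20% did not overlap with higher and 19.5% with lower values. Median log2 fold changes were 0.13 for the partners and -0.17 for the secretion genes, and none of either list was called in LPS/IL4 cultures, with 1 partner and 3 secretion genes at an unadjusted p under 0.05, a limit that 6.65% of all genes passed there.

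Of 39 tested genes of class switching and somatic mutation, 4 rose and 5 fell in CD3/CD28 cultures, with a median log2 fold change of -0.0019. Over all genes tested 9.88% rose and 8.76% fell, so the counts of this list were near that background. Those that fell included Il4ra, the interleukin 4 receptor chain (418 ± 13.3 CPM in CTCFfl/fl and 636 ± 54.6 CPM in CTCFfl/+ cells, log2 fold change -0.60, adjusted p = 0.000666 with limma), Nfkb1, a transcription factor of the NF-κB family (-0.44, adjusted p = 0.00222), Rif1, which protects DNA ends (-0.45, adjusted p = 0.00312) and the base excision repair gene Apex1 (-0.41, adjusted p = 0.0055), as well as Tgfbr1. Those that rose were Ifngr1, an interferon gamma receptor chain (0.64, adjusted p = 0.00323), Ikzf1, Smad3 and Tgfbr2. Under LPS/IL4 none of the 39 was called with limma, and 4 had an unadjusted p under 0.05 (6.65% over all genes). Of 9 genes of Fc receptors and related proteins, not all of which bind antibody, 3 rose in CD3/CD28 cultures and 1 fell. Fcgr2b, the inhibitory IgG receptor of B cells, averaged 216 ± 22.2 CPM in CTCFfl/fl and 113 ± 7.87 CPM in CTCFfl/+ cells (log2 fold change 0.92, adjusted p = 0.000189), and Fcrla (0.93) and Fcrl1 (0.68) rose with it. Fcer2a, the low-affinity IgE receptor, fell to 38.1 ± 6.31 CPM in CTCFfl/fl cells, against 174 ± 10.6 CPM in CTCFfl/+ cells (-2.19, adjusted p = 2.64e-06 with limma).

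Markers of other cells were read beside these results. In CD3/CD28 cultures all 8 B cell markers were present and 5 of them were called, each higher in CTCFfl/fl cells. Over all genes tested there, 9.88% were called higher and 8.76% lower, which is also the background of the marker calls below. The B cell markers summed to 4483 to 4708 CPM in CTCFfl/fl and 3867 to 4291 CPM in CTCFfl/+ libraries. Of 15 T cell markers, 14 had an entry and summed to 218 to 248 CPM in CTCFfl/fl and 150.2 to 177 CPM in CTCFfl/+ libraries. Cd3d, Cd3e, Cd4, Trac, Trbc1 and Trbc2 stayed under 1 CPM in every library of these cultures, and Cd2 and Lck made up most of the sum. Cd2 (104 CPM in CTCFfl/fl and 58.0 CPM in CTCFfl/+ cells) and Cd3g (2.72 CPM in CTCFfl/fl and 0.968 CPM in CTCFfl/+ cells) were called higher. Of 9 myeloid markers, 4 were analysed and summed to 29.7 to 43.2 CPM in CTCFfl/fl and 16.9 to 36.8 CPM in CTCFfl/+ libraries, with Itgam and Tyrobp called higher and Ly6c2 at 11.7 CPM in CTCFfl/fl and 16.7 CPM in CTCFfl/+ cells (log2 fold change -0.49, adjusted p = 0.311 with limma). Of 4 NK cell markers, 2 were analysed and summed to 1.46 to 1.96 CPM in CTCFfl/fl and 1.58 to 2.43 CPM in CTCFfl/+ libraries, and none of the 3 erythroid markers was analysed here. Of 7 plasma cell markers, 6 had an entry and summed to 821 to 977 CPM in CTCFfl/fl and 818 to 891 CPM in CTCFfl/+ libraries. Jchain, which joins IgM and IgA into polymers, averaged 14.6 CPM in CTCFfl/fl and 9.18 CPM in CTCFfl/+ cells (log2 fold change 0.67, adjusted p = 0.0565 with limma). Xbp1 (log2 fold change -0.22, adjusted p = 0.0891), Irf4 (-0.21, adjusted p = 0.0879) and Mzb1 (0.20, adjusted p = 0.0839) did not pass either. Prdm1 and Sdc1 were called, as given above, and the part of any of these cells in the values of the constant genes was not tested.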

How the data were processed

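Polyadenylated RNA of sorted hCD2+ B cells was sequenced without strand information in 12 libraries, 3 per group. The authors used CASAVA 1.8, Cutadapt, RSEM 1.17 with Ensembl transcripts (GRCm38) and edgeR, and deposited normalized CPM of 12699 genes, of which 12586 were named here from GENCODE M21. Dividing by each library's step gave whole numbers, taken as recovered reads, for 100% of values (within 0.01 of a step).

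Log2(CPM + 0.5) was tested with limma 3.58.1 (R 4.3.3, intensity trend) in each culture and for the interaction. Genes were kept that reached 1 CPM in 3 or more libraries of the culture, and for the interaction in 3 or more libraries of each culture. Calls had a Benjamini-Hochberg adjusted p under 0.05. With 3 libraries against 3, an exact two-sided permutation test cannot go below p = 0.1. P-values measure the spread between pools of mice.

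Named were all members, Ctcf, up to 4 genes per list with the smallest adjusted p under CD3/CD28, any called under LPS/IL4 or for the interaction, and called variable genes that averaged 5 CPM or more. Genes beyond this rule, such as the remaining called class switching genes and single markers, were chosen after their values were seen. Some genes that the rule names are not reported here. Members, lists and rules were chosen with earlier results of these data known. Alternatives were pseudocounts of 0.1 and 1, other scalings and filters, no trend, a replicate block, 1 fit of all 12 libraries, edgeR 4.0.16 and DESeq2 1.42.0 on recovered reads, and leaving out each library.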

Additional observations from a re-analysis of the deposited data

Results flagged for a closer look

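The genotype effect differed between the cultures by the interaction test for 3 members: Igha (1.97 on the log2 scale, CD3/CD28 minus LPS/IL4), Ighg3 (0.83) and Ighg1 (-0.75). The ratio of Igha to Ighm went opposite ways without overlap, with a log2 difference, CTCFfl/fl minus CTCFfl/+, of 0.73 under CD3/CD28 and of -1.27 under LPS/IL4. Whether these ratios differ was not tested. Among variable genes, Ighv1-69 had an interaction of 1.17 (adjusted p = 0.0279 with limma), which was lost without any 1 of 5 libraries (adjusted p of 0.0554 to 0.075), namely CD3/CD28 CTCFfl/fl replicate 2, CD3/CD28 CTCFfl/+ replicates 1 and 3 and LPS/IL4 CTCFfl/+ replicates 1 and 3. Among the lists of genes related to antibodies, the interaction of Prdm1 was 1.69 (adjusted p = 0.0101 with limma). Interactions were -2.41 for the IgE receptor gene Fcer2a (0.0011), 1.04 for the IgG receptor gene Fcgr2b (0.0121) and 0.97 for Fcrla (0.0354). For class switching genes they were -0.84 for Il4ra (0.00282), -0.34 for Nfkb1 (0.0439), 0.67 for Ifngr1 (0.018), -0.57 for Apex1 (0.011) and 0.37 for Runx3 (0.029). Of the genes beside the kappa locus, Eif2ak3 had 0.62 (0.00595) and Rpia -0.37 (0.0318, all with limma). Without CD3/CD28 CTCFfl/+ replicate 1 alone, the calls of Fcrla (0.0787), Nfkb1 (0.105), Runx3 (0.0694) and Rpia (0.0665) were lost, and each was also lost without several other single libraries (adjusted p of at most 0.0857 for Fcrla, 0.105 for Nfkb1, 0.0721 for Runx3 and 0.0823 for Rpia). The cultures were also separate batches, so stimulus and batch cannot be told apart in these differences.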

How the results depend on the processing

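Of the 6 calls among the members, 3 held under every alternative that could test them (Ighg1 and Ighg3 in CD3/CD28 cultures and Igha for the interaction). A mean filter of 5 CPM left Igha untested. Leaving out 1 library gave 2 to 4 called members in CD3/CD28 cultures, 0 in LPS/IL4 cultures and 1 to 3 for the interaction. Without an intensity trend 1 member was called for the interaction, and with DESeq2 1 member was called in LPS/IL4 cultures. Over all genes, no trend gave 1092 calls in CD3/CD28 cultures against 2250, 1 in LPS/IL4 cultures against 4 and 388 for the interaction against 897. The recovered reads gave 2240 calls with edgeR and 1927 with DESeq2 in CD3/CD28 cultures, 4 and 37 in LPS/IL4 cultures and 797 and 1138 for the interaction. The 4 calls of LPS/IL4 cultures became 7 with a pseudocount of 1, 2 with quantile normalization, 2 without a filter and 18 with the replicate block. Same-numbered libraries shared only a number (correlations of their deviations of 0.05, -0.13 and -0.01 in CD3/CD28 and 0.39, 0.14 and -0.12 in LPS/IL4 cultures, and not every library correlated best with its own number). The block gave 1870 calls in CD3/CD28 cultures and 604 for the interaction. Leaving out 1 library gave 1005 to 2321 calls in CD3/CD28 cultures, 2 to 75 in LPS/IL4 cultures and 405 to 989 for the interaction. The CD3/CD28 count fell most without CTCFfl/+ replicates 1 (1181), 2 (1415) and 3 (1005). The LPS/IL4 count was highest without CTCFfl/+ replicate 3 (75) and CTCFfl/fl replicate 2 (40). The interaction count was 475 without CD3/CD28 CTCFfl/fl replicate 2, 458 and 405 without CTCFfl/+ replicates 1 and 3 of these cultures, and 509 without LPS/IL4 CTCFfl/fl replicate 3. Ctcf kept its sign throughout but had an adjusted p of 0.128 with limma in LPS/IL4 cultures without the trend (range 8.82e-18 to 0.128).

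Sign changes among the members occurred only in uncalled ones. With CPM rescaled to genes that are not immunoglobulin genes, Ighg2c in CD3/CD28 cultures was at -0.001, and Ighm and Igkc in LPS/IL4 cultures were at 0.0041 and 0.012 on the log2 scale. With quantile normalization Ighm was at 0.11 in LPS/IL4 cultures and at -0.0408 for the interaction. Leaving out 1 library gave log2 fold changes of -0.28 to 0.0938 for Ighg2b and -0.0614 to 0.0927 for Ighg2c in CD3/CD28 cultures. In LPS/IL4 cultures it gave -0.0743 to 0.0579 for Ighm, -0.074 to 0.29 for Ighg1, -0.0585 to 0.0326 for Igkc and -0.0515 to 0.12 for Iglc2. The log2 difference of the Ighg1 to Ighm ratio in LPS/IL4 cultures ran from -0.13 to 0.37 without 1 library. The cause of these changes was not tested.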

Other observations

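Genes that border the antibody loci were read as lists. In CD3/CD28 cultures 18.6% of all genes tested were called, 9.88% higher and 8.76% lower. In lists this short, 1 call was therefore not read as an effect on a locus. Of 9 tested genes beyond the last heavy chain constant gene, 1 was called in CD3/CD28 cultures, Crip1 (15.0 to 16.3 CPM in CTCFfl/fl and 8.47 to 10.9 CPM in CTCFfl/+ libraries, log2 fold change 0.63, SE 0.13, adjusted p = 0.00912 with limma), with a median of 0.17 for the list. Of 3 tested genes beside the kappa locus 1 was called, Eif2ak3, a kinase of the unfolded protein response (0.36, SE 0.07, adjusted p = 0.00751). Of 5 tested genes beside the lambda locus 1 was called, Ppm1f (-0.29, SE 0.08, adjusted p = 0.0352 with limma), whose call was lost without any library but CTCFfl/fl replicate 2 (adjusted p of 0.0584 to 0.157). None of these genes was called with limma under LPS/IL4. There 2 genes, both beside the kappa locus, had an unadjusted p under 0.05, a limit that 6.65% of all genes passed.

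Genes with a pattern like that of 3 members were taken by Pearson correlation of log2(CPM + 0.5) over all 12 libraries, centred on each culture, among 9764 genes, as a description across libraries that share genotype and depth. For Ighg1, Seh1l (0.96) and Atp11a (0.95) were among the 3 most alike. For Ighm, Ifi209 (0.91) and Thtpa (0.89) were among the 3 most alike, and for Igkc the 3 were Cd52 (0.94), Mrps21 (0.87) and Cmpk2 (0.86).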
